A study of Danio rerio with 2 samples.

Results

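The genes examined here were 38 genes of DNA replication, found by their symbols in the deposited gene list. All 38 were present, among 32057 genes listed, and they took 39 gene identifiers because *rrm2* stood for a pair of identifiers. They were measured by single-cell RNA sequencing of cells sorted from hand-dissected zebrafish hearts at 72 and 48 h post fertilization (hpf). All embryos and larvae of both ages were *Tg(kdrl:nls-mCherry); Tg(cd41:GFP)*, with no other allele or treatment in the labels. The *kdrl* promoter drives nuclear mCherry in endothelial and endocardial cells, and the *cd41* promoter drives GFP in thrombocytes and in blood stem and progenitor cells. Live cells positive for mCherry alone or for both reporters were mixed before capture, so the libraries hold no cells chosen by GFP alone. There was 1 library from 1 Chromium lane at each age, and the number of hearts behind each is not given in the sources used here. Age and library therefore cannot be told apart, no test between ages or classes could be run, and every interval below is a 95% interval that covers counting error only.

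A dividing cell copies its genome in S phase. The Mcm2 to Mcm7 proteins form the ring-shaped helicase that Cdc6 helps to load at origins and that Cdc45 and the GINS complex turn on. Primase and DNA polymerase alpha start each new strand, polymerase epsilon and others extend it, and the clamp Pcna, placed by replication factor C, holds them on DNA. These functions are known mainly from yeast and mammalian cells, where many of the genes are switched on together before S phase by E2F transcription factors. In the heart, endocardial cells are the endothelial lining of the chambers and valves. Their number grows by division while the embryonic heart expands.

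Depth and cell classes are given here once. At 72 hpf there were 4125 cells and 33721297 UMIs (unique molecular identifiers, which stand for captured transcripts), and a cell had 3293 to 46806 UMIs, with a median of 6316. At 48 hpf there were 2665 cells and 30735426 UMIs, and a cell had 2751 to 79992, with a median of 10411. Only 4 cell barcodes occurred in both. Cells were clustered without the 38 genes and without other cell cycle genes, so that dividing and resting cells of a type could share a cluster, and clusters were named from marker lists. At 72 and 48 hpf the classes held 832 and 921 valve endocardial-like cells, 117 and 191 lymphatic endothelial-like cells, and 2218 and 1515 chamber endocardial-like cells. Valve interstitial-like cells (350 cells), erythroid-like cells (54), thrombocyte-like cells (71) and other blood cells (238) were compared at 72 hpf only, since the 48 hpf library held 15 blood cells and 3 valve interstitial-like cells. Thinned to 2500 UMIs per cell, the valve marker *alcama* was found in 52.3% and 79.4% of valve cells at 72 and 48 hpf, against 4.01% and 24.6% of chamber cells. The chamber marker *tmem88b* was found in 89.2% and 56.4% of chamber cells at 72 and 48 hpf. Its shares were 18.6% and 20.3% in valve cells, and 47.9% and 53.4% in lymphatic-like cells. The lymphatic marker *lyve1b* was found in 61.5% and 51.3% of lymphatic-like cells, and the thrombopoietin receptor gene *mpl* in 81.7% of thrombocyte-like cells. The embryonic globin gene *hbae1.1* was found in 85.2% of erythroid-like cells, 63.4% of thrombocyte-like cells and 37.8% of other blood cells, against 0.812% of chamber cells. *kdrl* itself was found in none of the thinned erythroid-like or thrombocyte-like cells, although mCherry under its promoter was the sorting criterion.

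Different clusters carried the same class at the 2 ages: a *spp1*-led cluster made up 831 of the valve cells at 72 hpf and an *aldh1a2*-led cluster 912 of them at 48 hpf. Chamber cells came from *vcam1b*- and *wnt5b*-led clusters at 72 hpf and from *calcrla*- and *esm1*-led clusters at 48 hpf. Each cluster of 72 hpf was named from 7 chamber markers, and each of 48 hpf from 3. In the *esm1*-led cluster (723 cells of 48 hpf), *alcama* was found in 41.9% and *tmem88b* in 43.8% of thinned cells. The *calcrla*-led cluster (780 cells) had 8.72% and 67.4%. Levels are in CPM, the UMIs of a gene over the pooled cells of a class, scaled to a class total of 1000000 UMIs. CPM counts transcripts captured at their 3′ end, and it compares a gene between classes rather than genes with one another. A gene was called higher or lower when its ratio was at least 1.5-fold, with at least 10 CPM in either group. No class was taken to lack these genes, so no background level could be set from one. Fewer dividing cells and less RNA per dividing cell cannot be told apart in a pooled level.

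The summed level of the 38 genes was higher in the blood classes of 72 hpf hearts than in any non-blood class of that age, and lower at 72 hpf than at 48 hpf in each non-blood class compared. Erythroid-like cells had 5155 CPM (5039 to 5274), thrombocyte-like cells 3953 CPM (3784 to 4128) and other blood cells 4849 CPM (4787 to 4912), against 2348 CPM (2323 to 2373) in chamber cells of 72 hpf. Valve interstitial-like cells had 2092 CPM (2038 to 2147) and valve endocardial-like cells 1519 CPM (1488 to 1549), and lymphatic-like cells of 72 hpf were last with 570.3 CPM (515 to 629.5). At 48 hpf the order differed. Lymphatic-like cells had 4472 CPM (4384 to 4562) and valve cells 2704 CPM (2672 to 2736), against 4736 CPM (4704 to 4768) in chamber cells. Adjacent classes in these orders differed beyond their counting intervals, which say nothing of the spread between hearts.

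**Figure D1:**
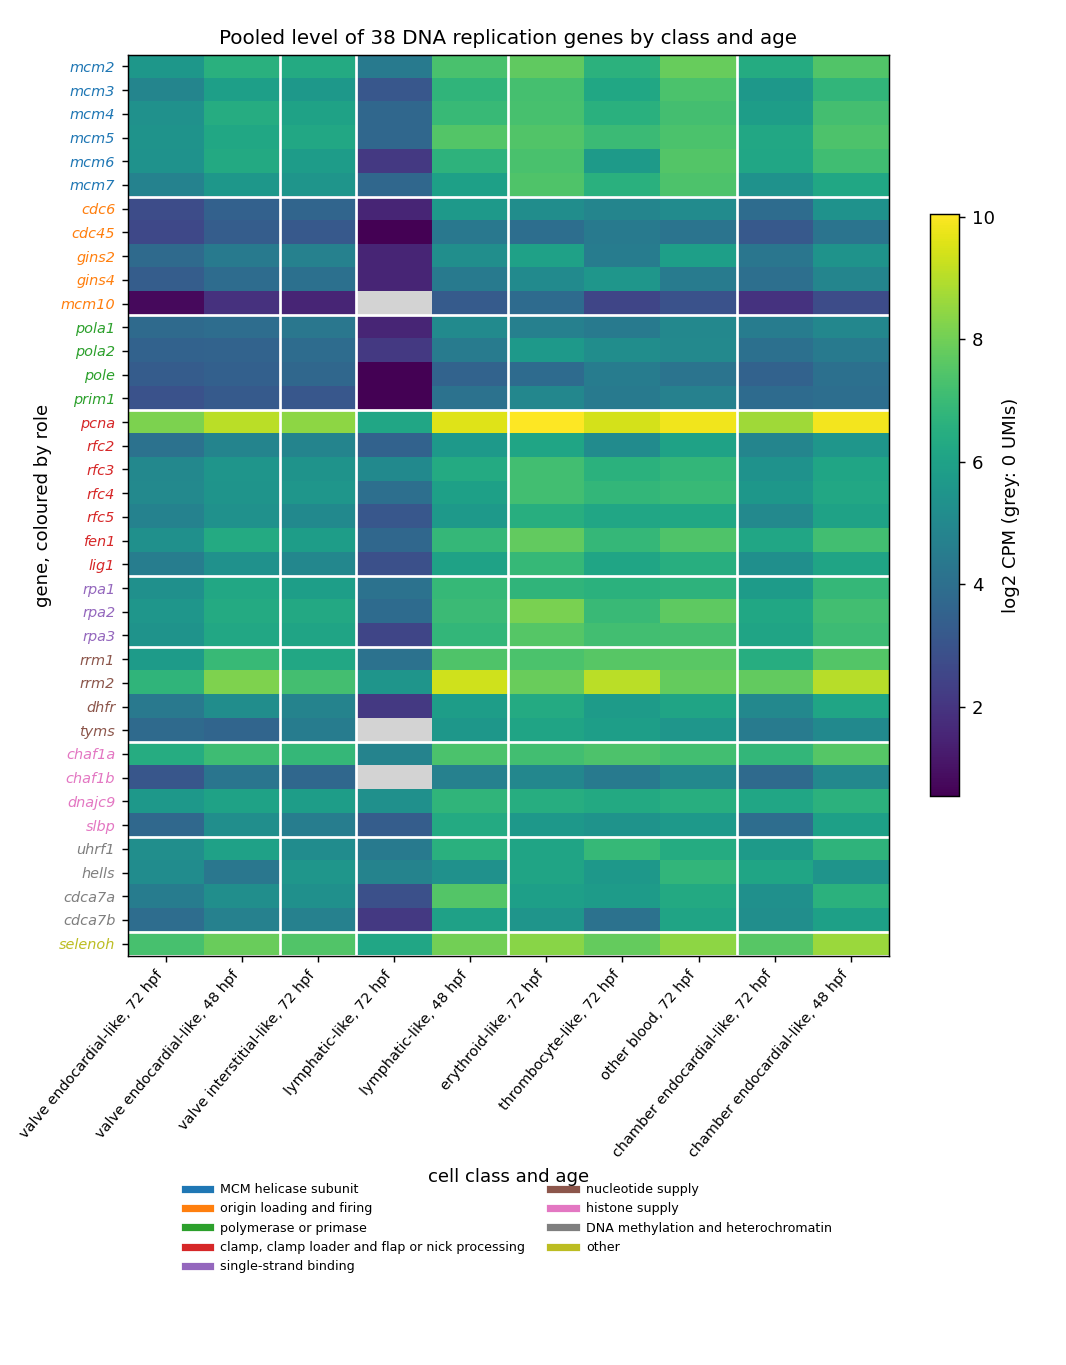
Pooled level of each of the 38 genes (rows, coloured by role) in 10 class and age groups (columns), as log2 CPM on a colour scale, with grey for 0 UMIs. The column of lymphatic-like cells at 72 hpf is the darkest, with summed level 570.3 CPM, and that of erythroid-like cells among the brightest, with 5155 CPM.

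Gene by gene, the lowest place recurred while the highest was shared among 5 groups. Of the 10 class and age groups, lymphatic-like cells of 72 hpf held the lowest level of 36 of the 38 genes. The others were *rfc3*, lowest in valve cells of 72 hpf, and *hells*, lowest in valve cells of 48 hpf. Erythroid-like cells held the highest level of 17 genes, among them *mcm4*, *mcm7*, *gins2*, *pcna*, *fen1*, *lig1* and the 4 members of replication factor C, *rfc2* to *rfc5*. Lymphatic-like cells of 48 hpf were highest for 8 genes, other blood cells for 6, thrombocyte-like cells for 4 and chamber cells of 48 hpf for 3, which were *chaf1a*, *chaf1b* and *selenoh*. How often any gene was lowest or highest in these groups was not counted. These places therefore have no background and only describe the members. *pcna* alone supplied 18.4% of all UMIs of the 38 genes at 72 hpf and 19.7% at 48 hpf, so the sums lean on it.

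In chamber endocardial-like cells, most of the 38 genes were lower at 72 hpf than at 48 hpf. Their summed ratio, 72 over 48 hpf, was 0.496 (0.49 to 0.502), a 2.02-fold lower level at 72 hpf. Of 37 genes with enough counts, 30 were lower at 72 hpf and 1, *hells*, was higher, whereas 15.9% of all 6770 genes tested were lower and 19.8% higher. Their median log2 ratio was -0.99, and that of all genes tested 0.00. *slbp*, whose protein binds the stem-loop of histone mRNAs, fell furthest, with a ratio of 0.249 (0.215 to 0.288). *cdc6* followed at 0.358 (0.306 to 0.417) and *mcm4* at 0.387 (0.357 to 0.418). The 6 genes not called were *tyms*, *pole*, *dnajc9*, *pola1*, *pola2* and *prim1*, with ratios of 0.686 to 0.921. All 4 polymerase and primase genes were among them.

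Valve endocardial-like cells also had a lower summed level at 72 hpf, with a ratio of 0.562 (0.549 to 0.575). Here 27 of 36 genes were lower at 72 hpf and 1, *hells*, was higher, against 12.5% lower and 23.9% higher of all 6882 genes tested. The median log2 ratio of the tested members was -0.76, and that of all genes 0.11. The lowest ratios were those of *slbp* at 0.351 (0.275 to 0.445), *rrm2* at 0.362 (0.333 to 0.394) and *rrm1* at 0.438 (0.388 to 0.494). *tyms* had a ratio of 1.11 (0.838 to 1.46) and *pola2* of 0.969 (0.715 to 1.305), and neither was called. The size of the valve difference depended on how cells were clustered: the summed ratio was 0.381 with no gene left out of the clustering and 0.277 with only the 38 genes and the fixed cell cycle lists left out. With none and with only those genes left out, clusters led by *rrm2* (493 and 442 cells of 48 hpf) and *fbxo5* (295 and 252 cells of 72 hpf) were unnamed. Their cells were in no class. Which class differed more also turned, since the ratios were 0.407 in valve and 0.519 in chamber cells at resolution 1, and 0.497 in chamber cells with no gene left out. At resolution 1 an *esm1*-led cluster with 568 cells of 48 hpf was unnamed. The *spp1*-led valve cluster of 72 hpf held 393 cells with only those genes left out, 394 with none and 416 at resolution 1. Clusters led by *cdh4* or *gstm.3*, with 478, 465 and 563 cells of 72 hpf, were unnamed there. These ratios thus did not compare the main classes.

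Lymphatic endothelial-like cells showed the widest gap between ages. The summed ratio was 0.128 (0.115 to 0.141), which is 7.84-fold lower at 72 hpf, and 36 of 37 genes were lower with 0 higher, whereas 23.1% and 30.9% of all 7390 genes tested were lower and higher. The median log2 ratio was -3.15, and for all genes 0.11. *tyms*, *chaf1b* and *mcm10* had 0 UMIs in the 117 cells of 72 hpf, where 3 UMIs would be 4.35 CPM. Set against that floor for the class, *tyms* was at least 10.9-fold lower than its 47.2 CPM at 48 hpf and *chaf1b* at least 6.01-fold lower than its 26.1 CPM. *cdca7a*, which encodes a partner of the Hells remodeller, had 7.26 CPM (2.36 to 16.9) at 72 hpf and 181 CPM (164 to 199.97) at 48 hpf. The smallest differences were those of *hells*, with a ratio of 0.675 (0.388 to 1.12) and no call, and of *rfc3* at 0.404 (0.25 to 0.626) and *dnajc9* at 0.36 (0.233 to 0.538). Most lymphatic-like cells of 48 hpf (163 of 191) lay in a cluster led by *lrmp* and *gpm6ab* that held 1 cell of 72 hpf. Within the other cluster, led by *lyve1a* and *plvapb*, with 116 cells at 72 hpf and 28 at 48 hpf, the summed ratio was 0.179. This cluster was not the same at every setting: at resolution 1, and with no gene left out of the clustering, it held 115 cells of 72 hpf and 0 of 48 hpf, and at resolution 1 a cluster named from the *tlx2* endothelial list held 28 cells of 48 hpf and 1 of 72 hpf.

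**Figure D2:**
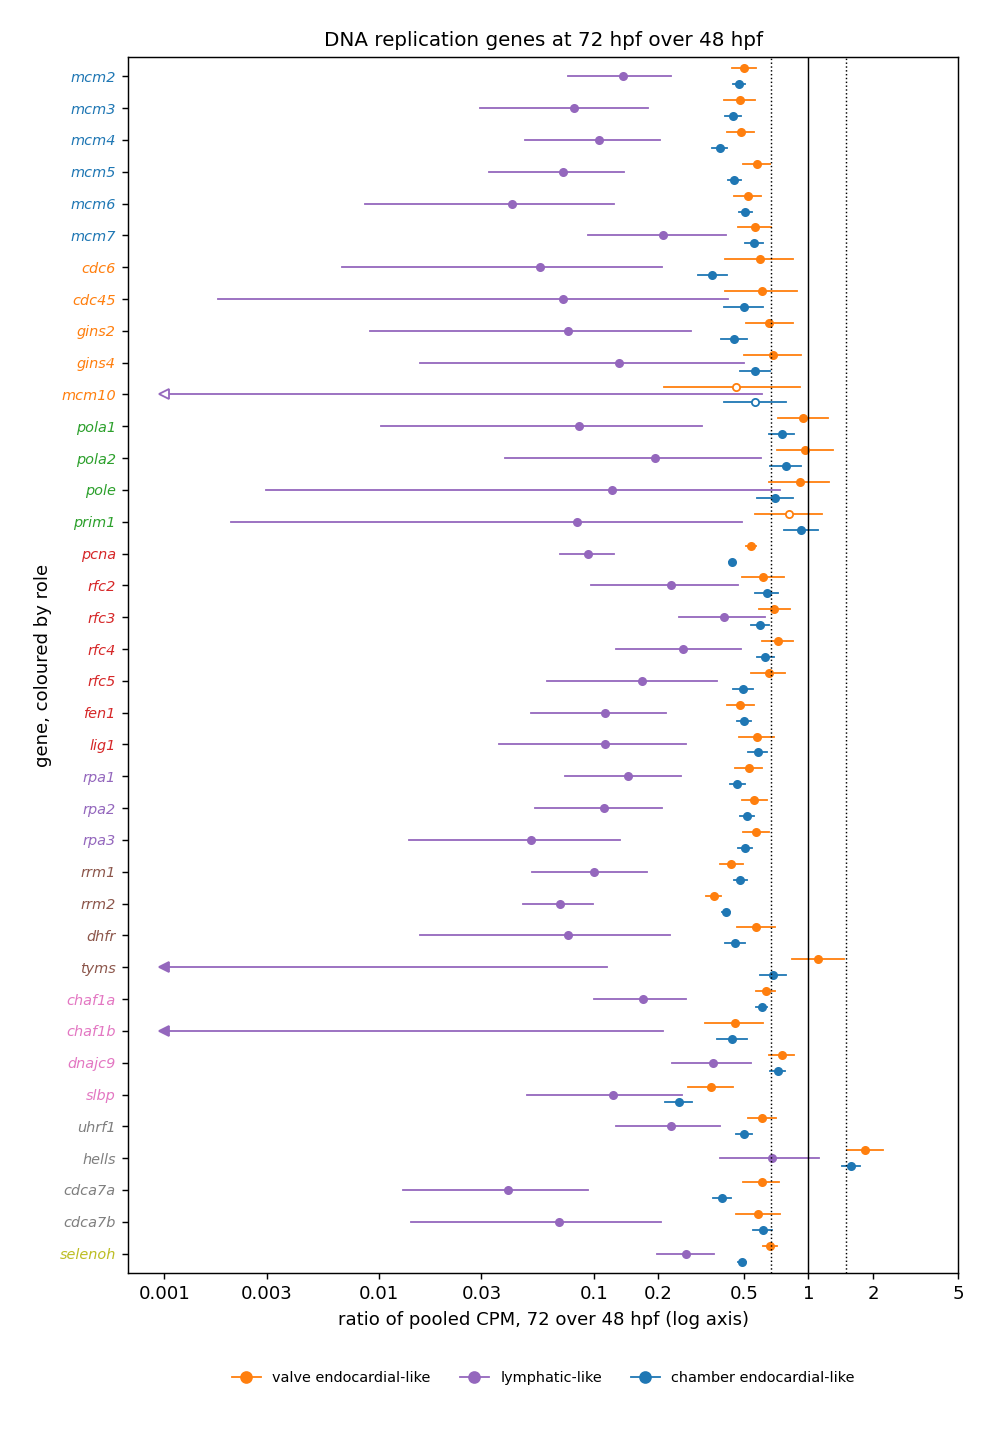
Ratio of pooled CPM at 72 hpf over 48 hpf on a log axis for each of the 38 genes (rows) in valve, lymphatic-like and chamber cells, with 95% counting intervals and open points for genes under the CPM minimum. Lymphatic-like cells sit far to the left of the other classes for nearly every gene, and *hells* is the gene with valve and chamber points right of 1.5, at 1.83 and 1.58.

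*hells* ran against the other members. This gene encodes a chromatin remodeller known in mammals for its part in DNA methylation of repeats. In chamber cells it had 69.9 CPM (65.6 to 74.3) at 72 hpf and 44.2 CPM (41.1 to 47.4) at 48 hpf, a ratio of 1.58 (1.44 to 1.74). Valve cells had 36.0 CPM (31.5 to 41.0) at 72 hpf and 19.6 CPM (17.0 to 22.5) at 48 hpf, a ratio of 1.83 (1.51 to 2.22). Over all non-blood cells, which needs no naming of classes beyond blood, the ratio was 1.64 (1.52 to 1.78), while 29 of 37 members were lower (background 11.7% lower, 21.3% higher) and their summed ratio was 0.517 (0.512 to 0.522). The higher level in valve cells was not stable. Its ratio was 0.856 with no gene left out of the clustering, 0.943 with only the listed genes left out and 0.999 at resolution 0.3, which turns or ends its direction. At resolution 1 it was 1.26 (0.935 to 1.67), under the limit of 1.5. The chamber ratio stayed between 1.46 and 2.02 and the non-blood ratio between 1.54 and 1.64 under the alternatives run. At resolution 0.3 the valve-named cluster of 48 hpf was wider, with 1599 cells and *esm1* among its leading genes.

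The 6 genes of the helicase ring, *mcm2* to *mcm7*, moved together. All 6 were lower at 72 hpf than at 48 hpf in valve cells (ratios 0.481 to 0.574), lymphatic-like cells (0.0418 to 0.211) and chamber cells (0.387 to 0.56). *mcm2*, the member with most UMIs, had 48.1 CPM in valve cells of 72 hpf and 95.6 CPM in those of 48 hpf. Its level in lymphatic-like cells was 21.8 CPM (12.18 to 35.9) at 72 hpf and 159 CPM (143 to 177) at 48 hpf, and in chamber cells 83.5 and 176 CPM. Pooled levels of this gene were higher in the blood classes than in the non-blood groups of 72 hpf given here. The interval of thrombocyte-like cells, however, took in the levels of chamber and valve interstitial-like cells. Erythroid-like cells had 211 CPM (188 to 236), thrombocyte-like cells 100.3 CPM (74.9 to 132) and other blood cells 226 CPM (213 to 239.6), and valve interstitial-like cells had 82.4 CPM (72.0 to 93.8). Erythroid-like and other blood cells were higher than chamber cells of 72 hpf for all 6 genes, with ratios of 2.23 to 4.12 and 2.16 to 3.99, led by *mcm7* in both. Thrombocyte-like cells were higher for 3 of the 6 and had a ratio of 0.736 (0.482 to 1.08) for *mcm6*, which was not called. *mcm6* was the member of the ring with the lowest level in lymphatic-like cells of 72 hpf, 3 UMIs in all.

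Of the 5 genes that load or fire the helicase, *mcm10* stayed under 10 CPM in all non-blood groups and was tested only in erythroid-like cells. *gins2*, a subunit of the GINS complex, had 14.1 CPM in valve cells of 72 hpf and 21.5 CPM in those of 48 hpf. It had 2.90 CPM (0.351 to 10.5) and 38.1 CPM (30.3 to 47.2) in lymphatic-like cells of 72 and 48 hpf, and 19.3 and 42.8 CPM in chamber cells. Valve and chamber cells of 72 hpf were close for this gene, with a ratio of 0.731 (0.57 to 0.93). Its blood levels spread more: 62.6 CPM (50.4 to 76.9) in erythroid-like, 23.2 CPM (11.96 to 40.4) in thrombocyte-like and 60.6 CPM (53.8 to 68.0) in other blood cells, with 26.1 CPM (20.5 to 32.9) in valve interstitial-like cells. *gins4*, another GINS subunit, had a different order, highest in thrombocyte-like cells, though with intervals that overlapped those of erythroid-like cells, with 34.4 CPM (25.5 to 45.4), 46.3 CPM (29.7 to 68.9) and 22.8 CPM (18.7 to 27.5) in erythroid-like, thrombocyte-like and other blood cells. *cdc6* was the member with the strongest contrast between valve and chamber at 48 hpf, with 11.4 and 41.6 CPM and a ratio of 0.273 (0.223 to 0.332). *cdc45* was lower at 72 hpf in all 3 classes, with ratios of 0.606, 0.0719 and 0.499 in valve, lymphatic-like and chamber cells.

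Of the roles among the 38 genes, the 4 genes of DNA polymerases and primase differed least between ages in valve and chamber cells. In lymphatic-like cells all 4 were lower at 72 hpf, with ratios of 0.0832 to 0.194. The polymerase delta subunit gene *pold3*, outside the 38, was lower at 72 hpf in chamber cells, as given below. *pola1* encodes the catalytic subunit of polymerase alpha, *pola2* its accessory subunit, *prim1* the primase subunit and *pole* the catalytic subunit of polymerase epsilon. *pola1* had 14.3 CPM (11.5 to 17.6) in valve cells of 72 hpf and 15.11 CPM (12.8 to 17.7) in those of 48 hpf, with overlapping intervals. In chamber cells it had 22.9 CPM (20.5 to 25.5) and 30.5 CPM (28.0 to 33.2) at 72 and 48 hpf, and in lymphatic-like cells 2.90 CPM (0.351 to 10.5) and 33.9 CPM (26.7 to 42.6). None of the 4 was called between ages in valve or chamber cells, where their ratios were 0.91 to 0.969 for the 3 tested in valve and 0.702 to 0.921 in chamber. The intervals of *prim1* in chamber cells, 0.921 (0.766 to 1.11), and of the 3 tested valve genes include 1, and these genes have few UMIs, so small differences between ages were not detectable at this depth in valve cells. Blood levels of *pola1* were 25.5 CPM (17.9 to 35.1) in erythroid-like, 21.2 CPM (10.6 to 37.97) in thrombocyte-like and 31.3 CPM (26.5 to 36.8) in other blood cells, and 19.6 CPM (14.7 to 25.6) in valve interstitial-like cells, none of them called against chamber cells. *pola2*, its partner, was 3.02-fold higher in erythroid-like and 2.201-fold higher in thrombocyte-like cells than in chamber cells.

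The clamp gene *pcna* was the most abundant member. It had 286 CPM (273 to 299.7) in valve cells of 72 hpf and 529 CPM (515 to 543) in those of 48 hpf. In lymphatic-like cells the levels were 72.6 CPM (53.9 to 95.7) and 769 CPM (733 to 807) at 72 and 48 hpf, and in chamber cells 418 CPM (407 to 429) and 952 CPM (938 to 967). All 3 classes were thus lower at 72 hpf, with ratios of 0.541, 0.0943 and 0.439. At 72 hpf, erythroid-like cells had 1057 CPM (1005 to 1111), thrombocyte-like cells 695 CPM (625 to 770.2), other blood cells 914 CPM (887 to 941) and valve interstitial-like cells 349 CPM (327 to 372). At equal depth *pcna* was found in 70.4% of erythroid-like, 32.4% of thrombocyte-like and 63.0% of other blood cells, against 29.2% of chamber cells of 72 hpf. The share was 28.2% and 39.5% in valve cells of 72 and 48 hpf, 10.3% and 44.5% in lymphatic-like cells, and 53.9% in chamber cells of 48 hpf. The thrombocyte-like share was close to that of chamber cells while the level was 1.66-fold higher. No order of these classes can be read from that share.

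The clamp loader genes *rfc2*, *rfc3*, *rfc4* and *rfc5* and the genes *fen1* (a nuclease that trims flaps between fragments of the lagging strand) and *lig1* (the ligase that joins them) completed this group of 7. All 7 were lower at 72 hpf in chamber cells, with ratios of 0.439 to 0.639, and 5 of 7 in valve cells, where *rfc3* and *rfc4* were not called at 0.696 and 0.721. *fen1* had 39.8 CPM (35.0 to 45.0) and 82.4 CPM (77.0 to 88.1) in valve cells and 71.5 CPM (67.2 to 76.0) and 142 CPM (137 to 148) in chamber cells of 72 and 48 hpf. *rfc3* was the member with most left in lymphatic-like cells of 72 hpf relative to chamber cells, 33.4 CPM (21.2 to 50.1) against 42.1 CPM (38.8 to 45.6), and the 1 member not called lower there. Each of the 7 was higher in erythroid-like and in other blood cells than in chamber cells, with ratios of 2.38 to 3.38 and 2.18 to 2.67. In thrombocyte-like cells 6 of 7 were higher, and *rfc2* had a ratio of 1.18 (0.692 to 1.89).

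Replication protein A, which coats single-stranded DNA, has 3 subunits. *rpa2* had 45.9 and 81.9 CPM in valve cells, 14.5 CPM (6.96 to 26.7) and 129.8 CPM (115 to 146) in lymphatic-like cells, and 74.1 and 143 CPM in chamber cells of 72 and 48 hpf. *rpa1*, *rpa2* and *rpa3* had nearly equal ratios between ages within a class, 0.527 to 0.569 in valve and 0.467 to 0.518 in chamber cells, all called lower. They parted in blood. *rpa2* had 283 CPM (256 to 312) in erythroid-like, 127 CPM (98.5 to 162) in thrombocyte-like and 206 CPM (193 to 219) in other blood cells, with 77.3 CPM (67.3 to 88.4) in valve interstitial-like cells. Its ratio of erythroid-like over chamber cells was 3.82 (3.40 to 4.28), whereas that of *rpa1* was 2.01 (1.68 to 2.38).

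Ribonucleotide reductase makes the DNA building blocks, with *rrm1* encoding its large and *rrm2* its small subunit. *dhfr* and *tyms* encode the reductase and the synthase that provide thymidylate. *rrm2* had 107 CPM (99.1 to 115) and 295 CPM (285 to 306) in valve cells, 45.0 CPM (30.6 to 63.9) and 649 CPM (615 to 683) in lymphatic-like cells, and 215 CPM (208 to 223) and 519 CPM (508 to 529.5) in chamber cells of 72 and 48 hpf. Its summed level was higher in thrombocyte-like cells than in the other blood classes. Thrombocyte-like cells had 538 CPM (477 to 605), erythroid-like cells 235 CPM (210.4 to 261) and other blood cells 224 CPM (211 to 238), with 146 CPM (132 to 161) in valve interstitial-like cells. Over chamber cells these were ratios of 2.501 (2.21 to 2.83), 1.09 (0.972 to 1.22) and 1.04 (0.971 to 1.12), the first called and the others near 1. Erythroid-like over thrombocyte-like, the ratio of 0.436 (0.371 to 0.512) was the lowest of all members. These blood ratios depended on the clustering. With fewer genes left out of it the ratio reached 4.60 in erythroid-like, 16.6 in thrombocyte-like and 6.79 in other blood cells. The chamber level was then 32.8 CPM with only the listed genes left out and 42.6 CPM with none. Thrombocyte-like cells kept 543 and 545 CPM at these settings. A cluster led by *fbxo5*, with 252 and 295 cells of 72 hpf, was left unnamed there. Without the deepest cells the ratio was 0.755 (0.665 to 0.856) in other blood cells. The *rrm2* values are sums over ENSDARG00000020711 and ENSDARG00000078069. Whether these are separate copies was not checked, and reads that fit both identifiers may have been split or lost. In thrombocyte-like, erythroid-like and other blood cells the first had 482, 181 and 194 CPM, and the second 56.0, 53.7 and 30.5 CPM. The second was thus nearly level between thrombocyte-like and erythroid-like cells. Both identifiers were lower at 72 hpf, with 167.6 and 47.6 CPM in chamber cells of 72 hpf, against 323.1 and 195.6 CPM in those of 48 hpf. *tyms* was the exception in this group. It had 13.98 CPM (11.2 to 17.2) and 12.6 CPM (10.5 to 14.96) in valve cells and 22.4 CPM (20.1 to 25.01) and 32.7 CPM (30.1 to 35.5) in chamber cells of 72 and 48 hpf, without a call in either.

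For histone supply, *chaf1a* and *chaf1b* encode subunits of the chromatin assembly factor that binds Pcna, *dnajc9* a histone chaperone and *slbp* the histone mRNA binding protein. *chaf1a* had 85.8 CPM (78.7 to 93.3) and 136 CPM (129 to 143) in valve cells, 27.6 CPM (16.6 to 43.1) and 163 CPM (146 to 181) in lymphatic-like cells, and 114 CPM (109 to 119.7) and 188 CPM (182 to 195) in chamber cells of 72 and 48 hpf. Its level was even across the blood classes, with 143 CPM in erythroid-like, 169.8 in thrombocyte-like and 142 in other blood cells, and 116 in valve interstitial-like cells. None of these was called against chamber cells. *slbp* varied most by age. It had 13.4 CPM (10.7 to 16.5) and 38.02 CPM (34.4 to 42.0) in valve cells, and 15.5 CPM (13.5 to 17.6) and 62.2 CPM (58.5 to 66.0) in chamber cells of 72 and 48 hpf. At 72 hpf its level was 23.6 CPM (18.2 to 30.1) in valve interstitial-like cells, and 3.30-fold that of chamber cells in other blood cells. *dnajc9* was near the call limit by age, at 0.75 in valve and 0.719 in chamber cells, and was not called.

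The genes of DNA methylation and heterochromatin upkeep were *uhrf1*, which brings the maintenance methyltransferase to newly copied DNA, *hells*, and the *hells* partners *cdca7a* and *cdca7b*. *uhrf1* had 38.02 CPM (33.4 to 43.1) and 62.6 CPM (57.9 to 67.6) in valve cells, 21.8 CPM (12.18 to 35.9) and 94.5 CPM (82.0 to 108) in lymphatic-like cells, and 53.1 CPM (49.4 to 57.0) and 106 CPM (101 to 111) in chamber cells of 72 and 48 hpf. In blood it was highest in thrombocyte-like cells, with 119.6 CPM (91.7 to 153), against 68.8 CPM (56.0 to 83.7) in erythroid-like and 84.0 CPM (76.0 to 92.6) in other blood cells. Valve interstitial-like cells had 35.9 CPM (29.2 to 43.8). *cdca7a* was the 1 member called higher in lymphatic-like than in chamber cells at 48 hpf, with 181 and 98.9 CPM and a ratio of 1.83 (1.64 to 2.04). That ratio was under the limit in the *lyve1a* and *plvapb* cluster alone, at 1.197, and with no gene left out of the clustering, at 1.448. At 72 hpf its ratio of the same classes was 0.185 (0.0597 to 0.433). *cdca7b* was the 1 member called lower in thrombocyte-like than in chamber cells, at 0.462 (0.21 to 0.884).

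*selenoh* encodes a selenium-containing nuclear protein and is not a replication enzyme. It followed the other members between ages, with 156 CPM (146 to 166) and 236 CPM (226 to 245) in valve cells, 71.1 CPM (52.6 to 94.0) and 263 CPM (242 to 285) in lymphatic-like cells, and 193 CPM (186 to 200.03) and 392 CPM (383 to 401) in chamber cells of 72 and 48 hpf. At 72 hpf it had 326 CPM in erythroid-like, 224 in thrombocyte-like, 347 in other blood and 178 in valve interstitial-like cells. Its spread between classes was narrower than that of *pcna*: in erythroid-like and lymphatic-like cells of 72 hpf, the levels were 326 and 71.1 CPM for *selenoh*, and 1057 and 72.6 CPM for *pcna*.

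Within the endothelial lineage, valve endocardial-like cells held less of these transcripts than chamber cells at both ages. At 72 hpf the summed ratio of valve over chamber was 0.647 (0.632 to 0.662), with 22 of 36 genes lower and 0 higher (background 12.3% lower, 16.7% higher). It was 0.417 with 31 members lower when only the listed genes were left out of the clustering, and 0.39 with 33 lower when none was. Both classes then differed from the main ones, as given above, and no share over all genes was computed at these settings. At 48 hpf it was 0.571 (0.563 to 0.579), with 35 of 37 lower and 0 higher (background 11.8% lower, 9.2% higher). The members' median log2 ratio was -0.68 at 72 hpf and -0.80 at 48 hpf, and that of all genes 0.08 and 0.00. The lowest ratios at 72 hpf were those of *cdca7b* (0.41 (0.327 to 0.509)), *cdc6* (0.455 (0.32 to 0.633)) and *rrm2* (0.497 (0.457 to 0.54)), and the highest those of *slbp* (0.863), *pole* (0.856) and *rfc5* (0.833). At 48 hpf *cdc6* (0.273), *cdca7a* (0.385) and *tyms* (0.385) were lowest, and *chaf1a* (0.721), *rrm1* (0.677) and *pole* (0.66) highest. Both age and class comparisons use the same chamber cells and are not independent of each other.

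Valve interstitial-like cells, the fibroblast-like cells of the forming valve, were close to chamber cells of 72 hpf. Their summed ratio over chamber was 0.891 (0.866 to 0.916), with 1 of 36 genes higher, *slbp* at 1.52 (1.14 to 2.02), and 2 lower, *prim1* at 0.597 (0.374 to 0.913) and *hells* at 0.665 (0.549 to 0.8). The background was 23.8% higher and 14.3% lower, above the members' share in both directions. *gins2* (1.35) and *mcm4* (1.14) came next to *slbp*, and *uhrf1* (0.676) next to *hells*. The median log2 ratio was -0.05 for the members and 0.12 for all genes. Relative to that shift, 0 members were higher and 5 lower, with no share over all genes computed after the centring.

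Lymphatic-like cells stood differently at each age. At 72 hpf their summed ratio over chamber was 0.243 (0.219 to 0.268), and 35 of 36 genes were lower with 0 higher (background 21.8% lower, 27.3% higher, median log2 ratio -2.35 for the members and 0.10 for all genes). *tyms* and *chaf1b*, at 0 UMIs, were at least 5.15- and 3.22-fold lower than in chamber cells, and *mcm6* followed at 0.0615 (0.0127 to 0.18). The highest ratios were 0.792 (0.499 to 1.2002) for *rfc3*, 0.656 (0.261 to 1.37) for *slbp* and 0.542 (0.356 to 0.793) for *dnajc9*. At 48 hpf the summed ratio was 0.944 (0.925 to 0.964), and 1 of 37 genes was higher and 0 lower (background 27.7% called in either direction, median log2 ratio -0.11 and 0.04 for all genes). *cdca7a* (1.83), *tyms* (1.44) and *slbp* (1.33) had the highest ratios, and *selenoh* (0.671), *pole* (0.724) and *mcm6* (0.749) the lowest. In the 28 cells of the *lyve1a* and *plvapb* cluster at 48 hpf the summed level was 3203 CPM, a ratio of 0.676 over chamber cells. There 20 members were lower, and the share over all genes was not computed. At resolution 1 no cell of 48 hpf lay in that cluster, so whether these 28 cells are lymphatic-like depended on the clustering.

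Inside the chamber class of 72 hpf, the *vcam1b*-led cluster (1394 cells) and the *wnt5b*-led cluster (823 cells) had summed levels of 2262 CPM (2231 to 2294) and 2468 CPM (2427 to 2509). Of 37 members, 0 were higher and 5 lower in the *vcam1b* cluster (background 4.44% higher, 10.2% lower). The 5 were *slbp*, *prim1*, *tyms*, *rrm2* and *rrm1*, with ratios of 0.588 to 0.629, a share near the background. Of 58 G2/M genes tested in the same comparison 51 were lower, with a median log2 ratio of -0.88, and whether the members' differences go with them was not tested. *hells*, *mcm2* and *gins2* had the highest ratios, 1.45, 1.37 and 1.36, without a call.

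The blood classes of 72 hpf hearts had higher levels of most of these transcripts than chamber cells. Erythroid-like cells, whose marker is globin, had a summed ratio over chamber cells of 2.195 (2.14 to 2.25), with 30 of 38 genes higher and 0 lower (background 31.9% higher, 47% lower). Their median log2 ratio was 1.27, and that of all genes -0.12. *mcm7* (4.12 (3.54 to 4.78)), *mcm10* (3.82 (2.19 to 6.42)) and *rpa2* (3.82 (3.40 to 4.28)) had the highest ratios, and *hells* (0.985), *rrm2* (1.09) and *pola1* (1.11) the lowest. These cells were deep, with a median of 27345 UMIs against 5713 in chamber cells, and their level after thinning to equal depth was 4711 CPM in sum. The part of depth in these differences was not tested further.

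**Figure D3:**
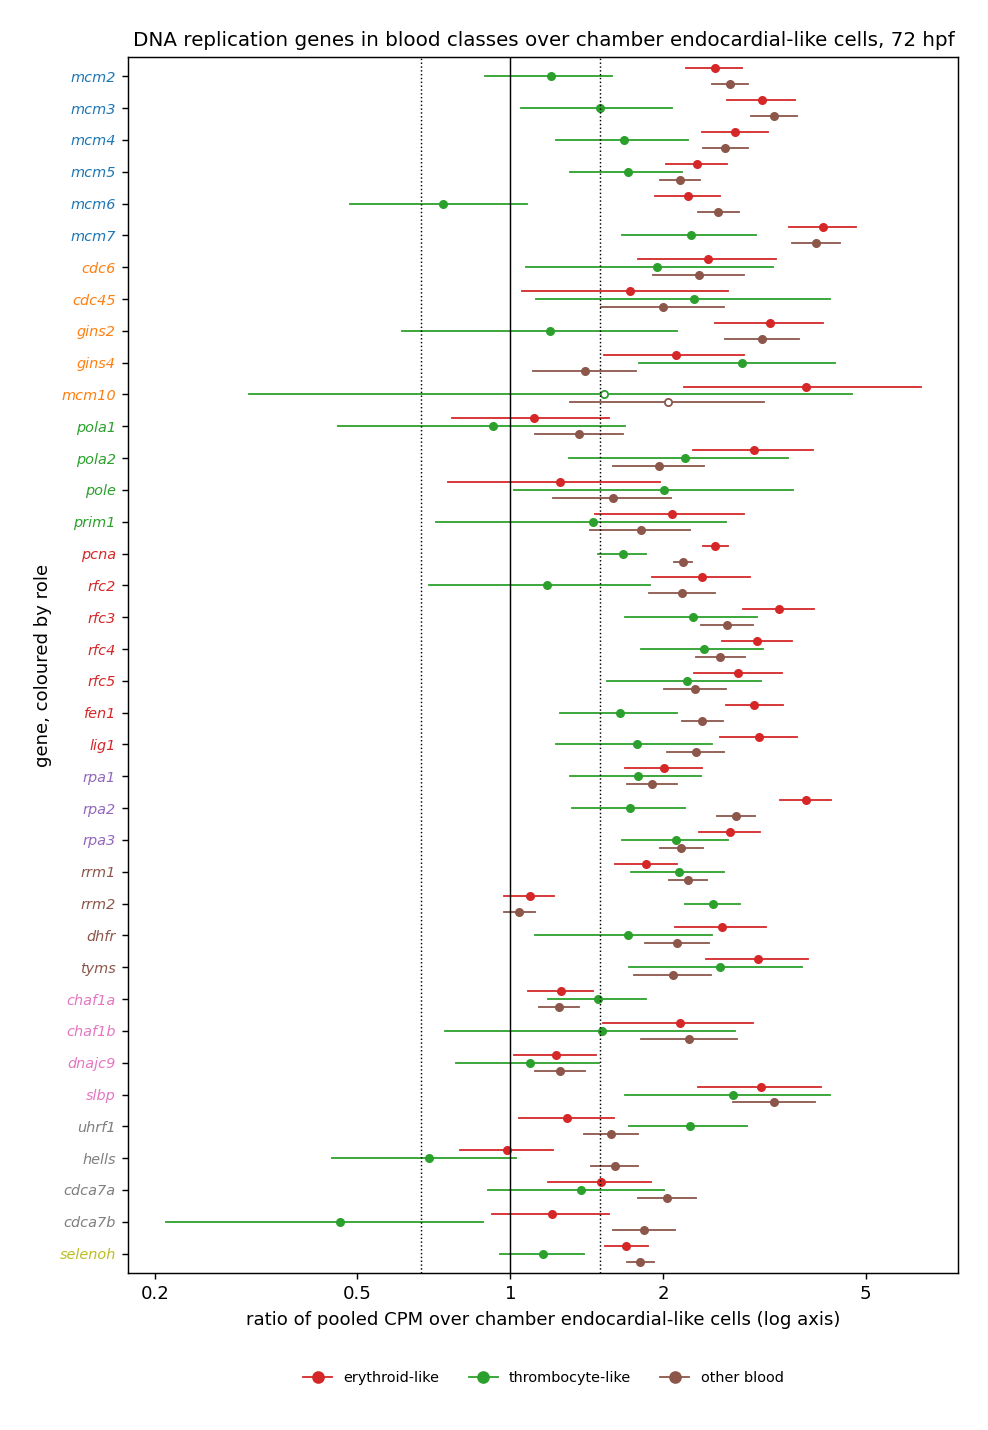
Ratio of pooled CPM over chamber cells of 72 hpf on a log axis for each of the 38 genes (rows) in erythroid-like, thrombocyte-like and other blood cells, with 95% counting intervals and open points for genes under the CPM minimum. Most points lie right of 1.5, while thrombocyte-like cells lie left of 1 for *cdca7b* (0.462), *hells* (0.691) and *mcm6* (0.736).

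Thrombocyte-like cells had a summed ratio over chamber cells of 1.68 (1.61 to 1.76), with 24 of 37 genes higher and 1 lower. The background was 36.7% higher and 30.4% lower, and the median log2 ratio was 0.77 for the members and 0.32 for all genes. Relative to that shift of all genes, 15 members were higher and 3 lower. The share of all genes called after this centring was not computed. *gins4* (2.85 (1.79 to 4.35)), *slbp* (2.74 (1.68 to 4.25)) and *tyms* (2.58 (1.71 to 3.75)) led, and *cdca7b*, *hells* (0.691) and *mcm6* (0.736) came last. With a median of 5654 UMIs these cells were as shallow as chamber cells. Globin transcripts in 63.4% of them, and the absence of *kdrl* and *cdh5* at equal depth, are measured beside this result, and the part of free or shared RNA in it was not tested.

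Erythroid-like over thrombocyte-like, 14 of 38 genes were higher and 3 lower (background 25.5% and 47.1%), with a median log2 ratio of 0.48 against -0.42 for all genes. Of the 6 *mcm* genes 5 were higher, led by *mcm6* at 3.04 (2.03 to 4.71), together with *gins2* (2.70 (1.48 to 5.43)) and *cdca7b* (2.62 (1.298 to 5.97)). The 3 lower genes were *rrm2*, *uhrf1* (0.575 (0.415 to 0.803)) and *pole* (0.624 (0.293 to 1.39)). These classes had 54 and 71 cells, and the intervals count UMIs rather than cells.

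Other blood cells, 238 cells of the clusters not kept under the erythroid or thrombocyte name, had a summed ratio over chamber cells of 2.06 (2.03 to 2.10). In them 32 of 37 genes were higher and 0 lower (background 34.6% higher, 37.8% lower, median log2 ratio 1.12 for the members and 0.02 for all genes). *mcm7* (3.99 (3.59 to 4.45)), *slbp* (3.30 (2.75 to 3.98)) and *mcm3* (3.30 (2.98 to 3.66)) were highest, and *rrm2* (1.04), *chaf1a* (1.25) and *dnajc9* (1.25) lowest and not called. Without cells above the 95th percentile of UMIs the summed ratio was 1.46 and 20 members were higher, with no share over all genes computed. The class joined groups that differed. The *ccr9a*-led group (71 cells) had 5685 CPM (5558 to 5814), the group led by *tfr1a* and *slc4a1a* (78 cells) 5212 CPM (5113 to 5312), the *col5a3a*-led group (66 cells) 4162 CPM (4043 to 4284) and the *MFAP4*-led group (23 cells) 1342 CPM (1217 to 1477). The *tfr1a* and *slc4a1a* group had 8 erythroid markers among its leading genes and *hbae1.1* in 52.6% of its thinned cells. With no gene left out of the clustering, a cluster of 103 cells led by *slc4a1a* was named erythroid. The *MFAP4* group, led by a gene named as a macrophage marker in zebrafish, was below chamber cells. *ccr9a* over *tfr1a* and *slc4a1a* group, 5 of 37 members were higher (*rrm1*, *gins4*, *chaf1b*, *pole* and *rrm2*, the last at 3.23 (2.79 to 3.74)) and 1 lower, *pola2* (background 32.8% and 14.2%). The 15 blood cells of 48 hpf had 1051 CPM (953 to 1156) and were not compared by gene. A further 25 blood cells of 72 hpf that also carried endothelial genes had 4121 CPM (3943 to 4305), and 212 endothelial cells with *cxcr4a* or *cfd* had 2226 CPM (2162 to 2292).

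Levels pooled over cells do not show how the transcripts were spread. Each cell was therefore thinned to 2500 UMIs, which no cell fell short of, and the members with at least 1 UMI were counted. The median number of genes per cell was 1 in valve and lymphatic-like cells of 72 hpf and 1 in chamber cells of that age, against 2, 4 and 5 in the same classes at 48 hpf. It was 9 in erythroid-like, 3 in thrombocyte-like and 8 in other blood cells. The share of cells with at least 10 of the 38 genes was 6.61% (5.02 to 8.52) of valve cells at 72 hpf and 11.9% (9.92 to 14.2) at 48 hpf. It was 1.71% (0.208 to 6.04) and 26.2% (20.1 to 33.0) of lymphatic-like cells and 10.9% (9.64 to 12.3) and 27.2% (24.97 to 29.5) of chamber cells. The same share was 10% (7.06 to 13.6) of valve interstitial-like, 46.3% (32.6 to 60.4) of erythroid-like, 18.3% (10.1 to 29.3) of thrombocyte-like and 38.2% (32.0 to 44.7) of other blood cells. These intervals overlap between valve interstitial-like, thrombocyte-like and chamber cells of 72 hpf.

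**Figure D4:**
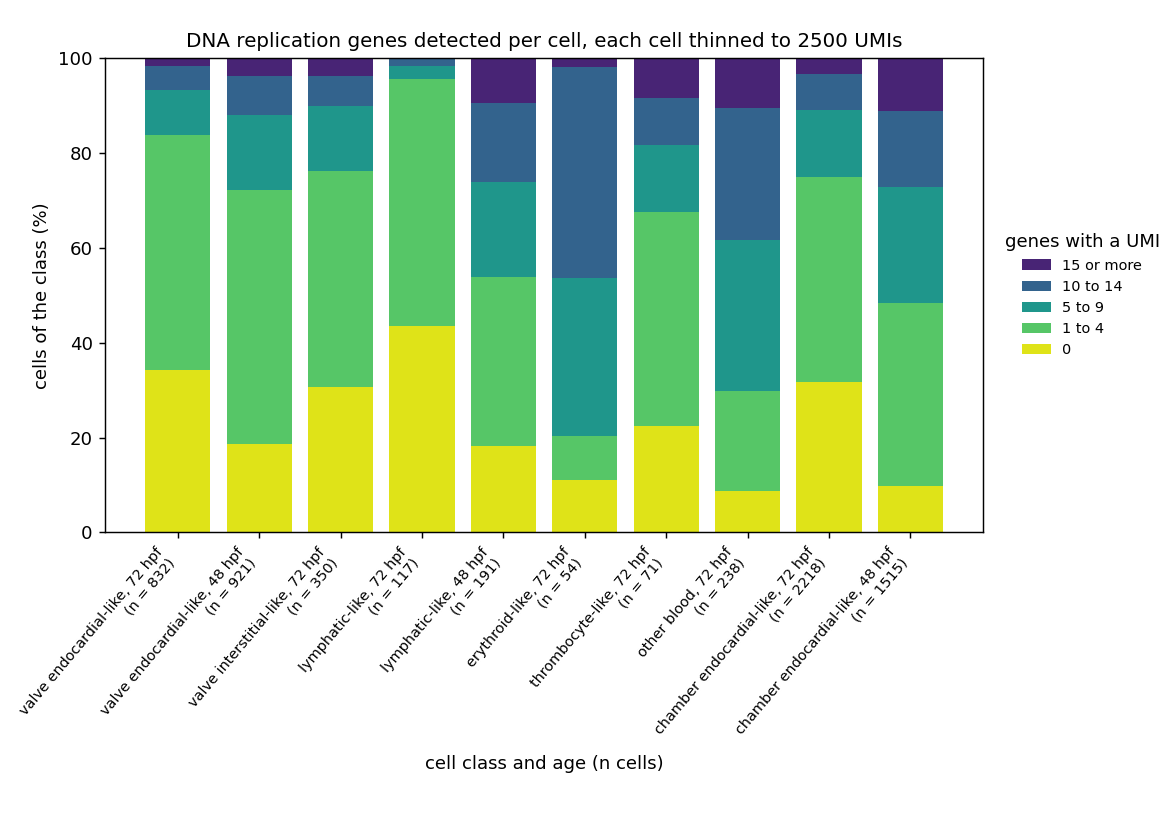
Share of cells (percent, stacked bars) by the number of the 38 genes with at least 1 UMI after thinning each cell to 2500 UMIs, for 10 class and age groups. The top segments, for 10 or more genes, reach 46.3% of erythroid-like cells and 27.2% of chamber cells of 48 hpf, against 1.71% of lymphatic-like cells of 72 hpf.

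The cells with 10 or more genes carried much of the total: 52.6% of the thinned member UMIs in chamber cells of 72 hpf and 67.7% in those of 48 hpf. They averaged 22.7 and 26.7 member UMIs. The limit of 10 genes cuts through a range, with 134 chamber cells of 72 hpf and 155 of 48 hpf at 9 to 11 genes, and it is no boundary of a cell type. Cells past it were also deeper before thinning, with a median of 8357.5 UMIs against 5520.5 in the other chamber cells of 72 hpf, and 12596 against 9714 at 48 hpf. At the other end, 31.8% of chamber cells of 72 hpf and 9.77% of those of 48 hpf had no member UMI at this depth. Erythroid-like cells had quartiles of 6 and 12 genes and a highest count of 15. Chamber cells of 48 hpf had quartiles of 2 and 10 genes and reached 24. These were 54 and 1515 cells of different libraries, and a highest count tends to grow with the number of cells.

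Non-blood cells were also ordered by the summed thinned UMIs of 60 genes of G2 and mitosis, the phases after S, which share no gene with the 38. The 4 bins held 0 to 1, 2 to 5, 6 to 15 and 16 or more G2/M UMIs, with 1514, 1613, 246 and 364 cells at 72 hpf and 425, 1042, 551 and 632 cells at 48 hpf. From the lowest to the highest bin, the summed member level was 806, 1801, 5258 and 4349 CPM at 72 hpf, and 1440.4, 2921, 6332 and 4761 CPM at 48 hpf. The third of the bins was thus highest at both ages, and it was the highest bin for 31 of the 38 genes at 72 hpf and 34 at 48 hpf. Genes outside the members were not counted by bin, so these counts have no background. The others were highest in the last bin: *cdc45*, *rrm1*, *rrm2* and *chaf1a* at both ages, and *pola2*, *prim1* and *chaf1b* at 72 hpf only. Of these, counting intervals of the third and last bins were apart only for *rrm1* and *rrm2* at both ages and for *chaf1a* at 72 hpf. With bins from cells thinned to 2000 UMIs, 4 genes at 72 hpf and 2 at 48 hpf were highest in the last bin. Cells of higher bins were deeper, with median UMIs of 5662 in the first and 9719.5 in the last bin at 72 hpf, and 9121 and 14466.5 at 48 hpf.

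**Figure D5:**
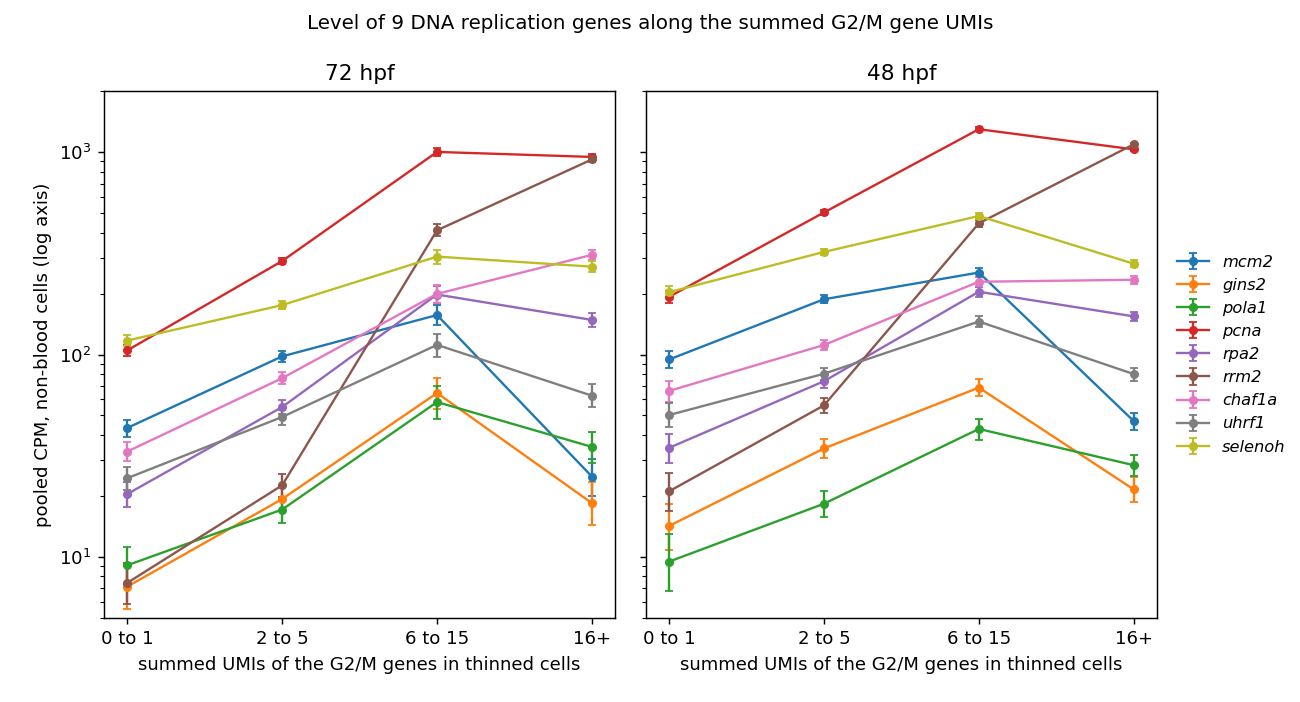
Pooled CPM (log axis) of 9 members, 1 for each role, in non-blood cells binned by their summed thinned UMIs of G2/M genes, at 72 hpf and 48 hpf, with 95% counting intervals. The line of *mcm2* drops 6.29- and 5.42-fold from the third to the last bin at 72 and 48 hpf, while that of *rrm2* rises 2.24- and 2.46-fold.

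The members parted between the third and the last bin, and several roles split within themselves. Only the *mcm* genes and the 4 genes of DNA methylation and heterochromatin were all at least 1.5-fold lower in the last bin at both ages. All 6 *mcm* genes were lower in the last bin, 8.10-fold for *mcm4* and 1.96-fold for *mcm7* at 72 hpf, which were the ends of their range. At 48 hpf they were 2.16- to 5.42-fold lower. *cdca7a* was 9.44- and 5.09-fold lower at 72 and 48 hpf, *hells* 3.77- and 3.56-fold and *gins2* 3.50- and 3.19-fold. Together 23 genes at 72 hpf and 22 at 48 hpf were at least 1.5-fold lower in the last bin. The share of all genes past that limit between these bins was not computed. *rrm2*, the small subunit of ribonucleotide reductase, did the opposite, with 921 CPM in the last and 411 CPM in the third bin at 72 hpf, and 1094 and 445 CPM at 48 hpf. *rrm1* was 1.51- and 1.59-fold higher in the last bin, and *pcna* was nearly level, 1.06- and 1.26-fold lower. Several genes lower in the last than in the third bin were still above the first bin, such as *mcm7*, with 47.1 CPM in the last and 15.9 CPM in the first bin at 72 hpf.

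Other replication genes outside the 38, 48 genes fixed as a list of which 46 were listed in the files, moved with the members. At 72 over 48 hpf, 13 of 26 tested were lower in valve cells, 35 of 37 in lymphatic-like cells and 20 of 33 in chamber cells, with 0 higher in each. Of all genes tested, 12.5%, 23.1% and 15.9% were lower in these classes, and 23.9%, 30.9% and 19.8% higher. In chamber cells the licensing factor gene *cdt1* (0.31), the polymerase delta subunit gene *pold3* (0.398) and *gins3* (0.424) had the lowest ratios, and *orc3* (1.25), *usp1* (1.007) and *timeless* (0.942) the highest. In valve cells *asf1ba* (0.38) and *orc6* (0.419) were among the lowest, and *usp1* (1.39), *timeless* (1.24) and *rfc1* (1.15) were highest. In lymphatic-like cells of 72 hpf *orc2*, *pole2* and *e2f7* had 0 UMIs, while *pole3* (0.776), *cdt1* (0.703) and *rfc1* (0.587) had the highest ratios. *cdt1* was also the 1 gene of the list that was higher in lymphatic-like than in chamber cells at 72 hpf, at 3.68. In that comparison 25 of 29 were lower (background 21.8% lower, 27.3% higher).

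Valve over chamber cells, 15 of 28 of these other genes were lower at 72 hpf and 23 of 33 at 48 hpf, with 0 higher. The background was 12.3% and 11.8% lower, and 16.7% and 9.2% higher. Over chamber cells, 36 of 41 were higher in erythroid-like, 25 of 37 in thrombocyte-like and 35 of 39 in other blood cells. Of all genes tested, 31.9%, 36.7% and 34.6% were higher in these comparisons. In thrombocyte-like cells the median log2 ratio was 0.90 for this list and 0.32 for all genes. The origin recognition gene *orc5* led in erythroid-like (6.57) and other blood cells (5.67), followed by *mcmbp* (5.07) and *asf1bb* (4.70) in the first and by *exo1* (4.68) and *mcmbp* (4.17) in the second. In thrombocyte-like cells the kinase gene *cdc7* (4.95), *gins3* (4.28) and *cdt1* (3.54) led, and *dscc1* (0.412), *orc2* (0.676) and *mcmbp* (0.748) came last.

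The 60 G2/M genes did not always move with replication genes. In lymphatic-like cells 57 of 57 were lower at 72 hpf (background 23.1%), as the members were, and in chamber cells 15 of 57 (background 15.9%), with a median log2 ratio of -0.31 against -0.99 for the members. In erythroid-like cells 6 of 56 were higher and 24 lower than in chamber cells, with a median log2 ratio of -0.43. Beside the background of 31.9% higher and 47% lower in that comparison, the lower share is no result about these genes. In thrombocyte-like cells 52 of 59 were higher (background 36.7%), with a median of 1.28. Erythroid-like over thrombocyte-like, 55 of 59 were lower (background 47.1%), while the replication members leaned the other way. Of 14 genes of cell cycle exit, 7 of 9 tested were lower in erythroid-like than in chamber cells, against the background of 47%. Other blood cells also had 7 of 9 lower (background 37.8%), and thrombocyte-like cells 5 of 10 (background 30.4%). The p53 target *cdkn1a*, an inhibitor of cyclin-dependent kinases, had 21.3 CPM in erythroid-like and 30.9 CPM in other blood cells. Chamber cells had 169 CPM at 72 hpf and 57.7 CPM at 48 hpf. Most exit genes did not follow *cdkn1a* by age in chamber cells. Of 10 tested there, 2 were higher and 1 lower at 72 hpf (background 19.8% and 15.9%), with a median log2 ratio of -0.11.

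Across the 3737 non-blood cells of 72 hpf and 2650 of 48 hpf, each thinned to 2500 UMIs, a member's level was correlated with the sum of the other 37 as a description. Pearson's r ran from 0.121 to 0.703 at 72 hpf and from 0.137 to 0.749 at 48 hpf, with *pcna* highest at both. Among all other genes, those most like the summed members were *stmn1a* (r of 0.545 at 72 hpf and 0.522 at 48 hpf), *dut* (0.525 and 0.505), *nasp* (0.462 and 0.495), *pclaf* (0.484 and 0.447) and *tubb2b* (0.435 and 0.446), followed by *asf1ba*, *rbbp4*, *tuba8l4*, *zgc:110540* and *anp32b*. *dut* encodes the enzyme that keeps uracil out of DNA, *nasp* a histone chaperone and *pclaf* a partner of Pcna, whereas *stmn1a* encodes a protein that binds tubulin. The cells of an age share 1 library, and their depth differed before thinning, so these values describe the libraries only.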

How the data were processed

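Live mCherry-positive cells of zebrafish hearts, single-positive or also GFP-positive, were run on 1 Chromium lane (Single Cell 3′, v3.1 chemistry) per age. As deposited by the authors, the files hold unnormalized UMI counts for every gene in every cell, and the submitters' processing notes name STARsolo, Scanpy and danRer11 with no version or role. Barcodes equalled the cell number in the methods at 72 hpf and slightly exceeded it at 48 hpf. All cells were kept, doublets included, with no doublet caller run.

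Genes and lists were chosen with earlier results of these data known, and the limits for naming clusters were chosen after seeing the data. Cells of both libraries were scaled to 10000 UMIs, logged and clustered (Python 3.11, scanpy 1.11.5, leidenalg 0.10.2, igraph 0.11.9, scikit-learn 1.9.0, anndata 0.12.19) on 2000 variable genes, 30 components and 15 neighbours at resolution 0.6 with seed 0. The 38 genes, the fixed cell cycle lists (166 gene rows in all) and 201 genes correlated with the member or G2/M sum at r of 0.15 or more in both libraries were left out. Without this, clusters would follow the measured genes. Clusters were named by the marker list that held most of their 50 leading genes (at least 3, log2 ratio of at least 1, detected in at least 25% of cells), if that list also led among the top 10. Blood clusters were clustered again and named alike, and one whose list did not lead among the top 10 was placed in other blood.

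Intervals are exact: Poisson for levels, conditional binomial for ratios and Clopper-Pearson for shares (numpy 2.4.6, scipy 1.17.1, pandas 2.3.3, matplotlib 3.10.9). For a count of 0, the other group was set against a fixed floor of 3 UMIs, which is not an exact limit. Each cell was thinned at random to 2500 UMIs for shares. The ratio step was tested on simulated counts. The thinning step was checked on the real counts, with thinned UMIs per gene set against those expected. Values by class and age are given for the member of each role with most UMIs, and for each comparison the 3 highest and 3 lowest ratios are named. Alternatives changed the clustering genes and resolution, depth, scaling, fold, CPM minimum, thinning and gene number per cell. No reference genome was used, so no position or sequence is given.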

Additional observations from a re-analysis of the deposited data

Results flagged for a closer look

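*cdca7a*, the partner of the Hells remodeller, lay on opposite sides of the call limit in lymphatic-like over chamber cells at the 2 ages. Its ratio was 0.185 at 72 hpf, from 7.26 CPM in lymphatic-like and 39.3 CPM in chamber cells, and 1.83 at 48 hpf, from 181 CPM in lymphatic-like and 98.9 CPM in chamber cells. The difference between the ages was not tested, since each age had 1 library. Under the alternatives run, the ratio spanned 0.156 to 0.217 at 72 hpf and 1.197 to 2.44 at 48 hpf, and the lowest 48 hpf value, under the limit of 1.5, was that of the *lyve1a* and *plvapb* cluster alone. The 72 hpf level rests on 5 UMIs.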

How the results depend on the processing

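No paired analysis was possible because each age had 1 library, and for the same reason no replicate could be left out. Intervals cover counting error only, the spread between hearts is unknown, and genes under 20 UMIs in a group are measured loosely. The causes of the changes below were not tested. Shares over all genes were not computed under the alternatives, so the member counts below have no background. Summed ratios kept their side of 1 under every alternative run except valve interstitial-like over chamber, which spanned 0.888 to 1.17, and lymphatic-like over chamber at 48 hpf, which spanned 0.676 to 1.15, its lowest value in the *lyve1a* and *plvapb* cluster alone. At resolution 0.3 a valve-named cluster held 1599 cells of 48 hpf, with *esm1* among its leading genes, against 921 in the main class. A lymphatic-named cluster held 925, with *calcrla* among its leading genes, against 191 in the main class. The age ratios of these classes at that setting therefore did not compare the main classes. Valve and chamber classes also differed from the main ones at resolution 1 and with fewer genes left out, as given above. A further 24 values could not be computed, since no cluster was named chamber at 48 hpf at resolution 0.3 or with only the listed genes left out, and erythroid-like cells numbered under 20 with only the listed genes left out or without the deepest cells. Values not given for a setting moved by less than their counting interval, or, for counts, by less than 1.5 times. With only the 38 genes and the fixed lists left out of the clustering, summed levels in CPM were valve 745 at 72 hpf, lymphatic-like 505 at 72 hpf and 4691 at 48 hpf, thrombocyte-like 3495, other blood 4925 and chamber 1789 at 72 hpf. Shares were valve 2.03% at 72 hpf and chamber 8.32% at 72 hpf. Between ages (72 over 48 hpf) members called were 0 higher in valve cells. Over chamber cells members called were 7 higher and 1 lower in valve interstitial-like cells and 2 lower in thrombocyte-like cells. With no gene left out of the clustering, the summed CPM was valve 748 at 72 hpf and 1965 at 48 hpf, valve interstitial-like 1705, erythroid-like 5431, other blood 4397 and chamber 1919 at 72 hpf and 3863 at 48 hpf. The share with at least 10 genes was valve 1.77% at 72 hpf and 8.71% at 48 hpf, other blood 30% and chamber 9.39% at 72 hpf and 23.1% at 48 hpf. Between ages (72 over 48 hpf) members called were 0 higher in valve cells. Against chamber cells, called members were 4 lower in valve interstitial-like cells, 8 higher and 1 lower in lymphatic-like cells at 48 hpf and 2 lower in thrombocyte-like cells. At clustering resolution 0.3, summed levels in CPM were valve 1483 at 72 hpf and 3501 at 48 hpf and lymphatic-like 4896 at 48 hpf. Shares of cells with at least 10 genes were valve 18.3% at 48 hpf. Between ages (72 over 48 hpf) members called were 0 higher in valve cells. At resolution 1, the summed CPM was valve 1071 at 72 hpf and 2633 at 48 hpf, valve interstitial-like 2188, lymphatic-like 4612 at 48 hpf and chamber 2256 at 72 hpf and 4350.1 at 48 hpf. The share with at least 10 genes was valve 3.59% at 72 hpf and chamber 22.8% at 48 hpf. Between ages (72 over 48 hpf) members called were 0 higher in valve cells. Over chamber cells members called were 2 higher and 0 lower in valve interstitial-like cells and 3 higher in lymphatic-like cells at 48 hpf. Without cells above the 95th percentile of UMIs, summed levels in CPM were valve 2634 at 48 hpf, thrombocyte-like 3767, other blood 3426 and chamber 4804 at 48 hpf. Shares of cells with at least 10 genes were other blood 23.1%. Against chamber cells, called members were 1 lower in lymphatic-like cells at 48 hpf, 2 lower in thrombocyte-like cells and 20 higher in other blood cells. From cells thinned to 2500 UMIs, the summed CPM was valve 1261 at 72 hpf and 2256 at 48 hpf, valve interstitial-like 1774, lymphatic-like 3879 at 48 hpf, erythroid-like 4711, thrombocyte-like 3048, other blood 4492 and chamber 1883 at 72 hpf and 4284 at 48 hpf. Between ages (72 over 48 hpf) members called were 2 higher in valve cells and 0 higher in chamber cells. Compared with chamber cells, the calls were 4 higher and 4 lower in valve interstitial-like cells, 2 higher and 2 lower in lymphatic-like cells at 48 hpf and 4 lower in thrombocyte-like cells. Per UMIs outside mitochondrial and globin genes, summed levels in CPM were erythroid-like 5486 and chamber 4782 at 48 hpf. Relative to the median ratio of all genes, against chamber cells, called members were 0 higher and 5 lower in valve interstitial-like cells, 1 lower in lymphatic-like cells at 48 hpf and 15 higher and 3 lower in thrombocyte-like cells. At a 2-fold limit, between ages (72 over 48 hpf) members called were 0 higher and 7 lower in valve cells, 0 higher and 13 lower in non-blood cells and 0 higher and 17 lower in chamber cells. Compared with chamber cells, the calls were 3 lower in valve cells at 72 hpf, 7 lower in valve cells at 48 hpf, 0 higher and 0 lower in valve interstitial-like cells, 0 higher in lymphatic-like cells at 48 hpf and 14 higher in thrombocyte-like cells. With a minimum of 50 CPM, between ages (72 over 48 hpf) members called were 0 higher and 15 lower in valve cells. Over chamber cells members called were 9 lower in valve cells at 72 hpf, 23 lower in valve cells at 48 hpf, 0 higher and 1 lower in valve interstitial-like cells, 16 lower in lymphatic-like cells at 72 hpf and 0 lower in thrombocyte-like cells. Thinned to 2000 UMIs, shares of cells with at least 10 genes were valve 3.37% at 72 hpf and 8.25% at 48 hpf, lymphatic-like 0% at 72 hpf and 18.8% at 48 hpf, erythroid-like 20.4%, other blood 24.8% and chamber 7.89% at 72 hpf and 20.9% at 48 hpf. For at least 8 genes, shares were valve 9.38% at 72 hpf and 17.7% at 48 hpf, valve interstitial-like 14%, erythroid-like 63.0%, other blood 50.4% and chamber 15.5% at 72 hpf and 34.7% at 48 hpf. For at least 12 genes, shares were valve 3.49% at 72 hpf and 8.47% at 48 hpf, erythroid-like 27.8%, other blood 25.2% and chamber 7.17% at 72 hpf and 20.3% at 48 hpf. In the *lyve1a* and *plvapb* cluster alone, an alternative chosen after seeing the data, the summed CPM was lymphatic-like 3203 at 48 hpf. The share with at least 10 genes was lymphatic-like 10.7% at 48 hpf. Against chamber cells, called members were 0 higher and 20 lower in lymphatic-like cells at 48 hpf. With G2/M bins from 2000 UMIs, members highest in the last bin were 4 at 72 hpf and 2 at 48 hpf.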
